A study of Mus musculus with 12 samples.

Results

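Calcineurin is the calcium- and calmodulin-dependent protein phosphatase of the cardiomyocyte growth response. The genes described here are its 3 catalytic subunit genes Ppp3ca, Ppp3cb and Ppp3cc, the regulatory subunit gene Ppp3r1, the regulator genes Rcan1 and Rcan2, and the genes of the calcineurin-dependent transcription factors, Nfatc1, Nfatc2, Nfatc3 and Nfatc4. They were taken by name, 10 of 55416 genes in the table, and each matched 1 row. Cultured neonatal mouse cardiomyocytes had received either a GapmeR against lincRNA-p21, that is, a DNA-like oligomer whose pairing with an RNA lets RNase H cut it, or a negative-control GapmeR. They were also given PBS or, for 24 hours, phenylephrine (PE), which acts on alpha1-adrenergic receptors and makes these cells grow. This gave 4 groups of 3 libraries of polyadenylated RNA: PE with the lincRNA-p21 GapmeR, PE with the control GapmeR, PBS with the lincRNA-p21 GapmeR, and PBS with the control GapmeR. Cells of the first and the third group are called knockdown cells below, and the others control cells. The knockdown means the lincRNA-p21 GapmeR against the control GapmeR. Whether lower lincRNA-p21 or another effect of that GapmeR lay behind a change was not tested. The design was meant to show how lowering lincRNA-p21 acts on the short-term hypertrophic response.

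As background, a calcium signal loads calmodulin, which switches on calcineurin, a dimer of a catalytic and a regulatory subunit. Calcineurin dephosphorylates the 4 NFATc proteins, which then enter the nucleus and, with partners such as GATA4, raise genes of hypertrophic growth. RCAN proteins bind calcineurin and can inhibit it. A short form of Rcan1 starts at an internal promoter that NFAT activates, so Rcan1 RNA is widely used as a readout of calcineurin activity in heart muscle.

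Libraries held 21325485 to 22139681 reads in genes, and each of the 10 genes 128 to 8368 reads per library. The deposited values, called normalised read counts here, are reads divided by 1 size factor per library. The 8 cardiomyocyte markers looked at, among them Tnnt2, Myh6 and Actn2, were detected in each library, with summed normalised read counts of 608698 to 719965 in PE knockdown cells, 761004 to 1045750 in PE control cells, 434955 to 479931 in PBS knockdown cells and 532139 to 639386 in PBS control cells. Myh6 was the largest part of these sums, with means of 413023, 604630, 252906 and 323169 in that order. In knockdown and in control cells Myh6 and Ryr2 were called higher with PE and Pln lower (limma), and the other markers of this list were not called. Markers of other heart cells were present as well, and in such mixed cultures fewer cells of a type and less RNA per cell cannot be told apart. Replicate 2 of the PBS knockdown cells stood farthest from the other libraries of its group, at a root-mean-square log2 distance of 0.373, and replicate 1 of the PE knockdown cells (0.284) and replicate 2 of the PBS control cells (0.262) were also the farthest of their groups. The remaining libraries stood at 0.153 to 0.271. Replicate 1 of the PBS knockdown cells (0.271) was farther than the PBS control library named. Replicate 1 of the PE control cells (0.200) was the farthest of its group, and both were kept. Counts of called members are given with and without the 3 libraries named first, a choice that follows no single cutoff. The target lincRNA-p21 (Trp53cor1) was 9.16 ± 0.73 in PE knockdown cells and 41.6 ± 12.5 in PE control cells, and 15.1 ± 6.60 in PBS knockdown cells and 64.5 ± 5.50 in PBS control cells (mean ± SD, n = 3 in each group, as in all that follows). Nothing in the labels says that replicates came from separate cultures or animals, so the p-values reflect the spread among these libraries alone, and that spread may be technical.

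The catalytic subunit gene Ppp3ca and the regulator Rcan2 were lower in knockdown than in control cells, with PE and with PBS. PE raised Rcan1 and lowered Nfatc4 in knockdown and in control cells. With PE the knockdown changed 3 of the 10 genes (limma, Benjamini-Hochberg adjusted p under 0.05), beside 11.7% of all 21799 genes tested. Ppp3ca and Rcan2 were lower, beside 7.14% of all genes, and Nfatc3 was higher, beside 4.57%. With PBS it changed 2, beside 4.57% of all genes, and these were again Ppp3ca and Rcan2, both lower, where 3.21% of all genes were lower and 1.36% higher. PE changed 3 of the 10 in knockdown cells, beside 27.4% of all genes, with Rcan1 higher, beside 13.4% of all genes, and Nfatc1 and Nfatc4 lower, beside 14.0%. In control cells it changed 4, beside 25.4% of all genes, with Rcan1, Rcan2 and Nfatc2 higher, beside 12.6% of all genes, and Nfatc4 lower, beside 12.8%. Without the 3 distant libraries these counts were 7, 4, 5 and 6, while the share of all genes called was 21.4%, 8.56%, 29.3% and 34.0%. These libraries were chosen for their distance, so leaving them out lowers the spread within groups and makes adjusted p-values too small. The calls added that way are therefore no independent support. The added calls were falls of Ppp3cb, Nfatc1, Nfatc2 and Nfatc4 with the knockdown in PE (limma, -0.32, -0.29, -0.47 and -0.33) and of Ppp3cb and Nfatc2 with the knockdown in PBS (-0.27 and -0.44). For PE they were a fall of Ppp3cb and a rise of Nfatc2 in knockdown cells (-0.29 and 0.72), and falls of Ppp3cb and Nfatc1 in control cells (-0.24 and -0.26). For PE the counts reported first are near the background share, so the text below turns to single genes.

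**Figure D1:**
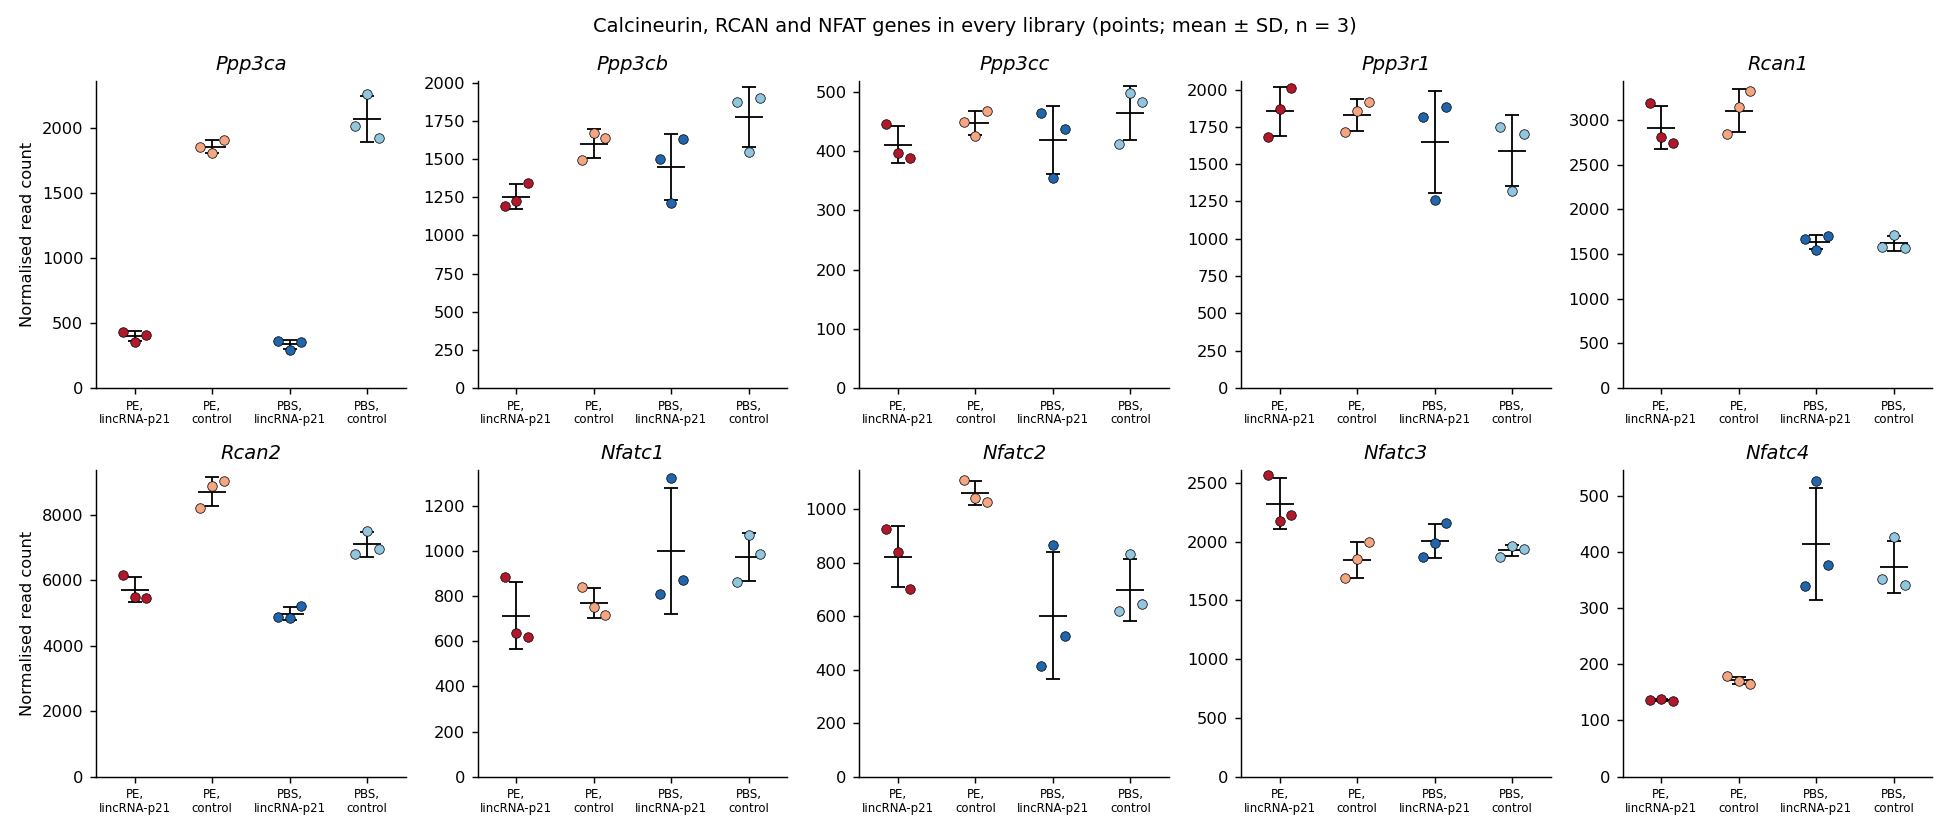
Normalised read count (y axis, from 0) of the 10 genes in each of the 12 libraries, with the mean and SD of each group of 3. The 6 knockdown libraries of Ppp3ca sit between 294 and 428, all below the control libraries, the 6 PE libraries of Rcan1 sit above the PBS libraries, and those of Nfatc4 below them.

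Ppp3ca, the alpha form of the catalytic subunit and a major form in heart, is a gene of 268 kb (ENSMUSG00000028161.18, GRCm38 chromosome 3, 136670124 to 136937727, plus strand). Its normalised read counts were 428, 355 and 408 in PE knockdown cells, against 1853, 1806 and 1902 in PE control cells. In PBS they were 358, 294 and 353 in knockdown cells, against 2015, 2260 and 1917 in control cells. Each knockdown library was far below each control library under the same treatment. The means were 78.6% lower with PE and 83.8% lower with PBS. On the log2 scale the falls were -2.22 ± 0.11 with PE and -2.62 ± 0.11 with PBS (estimate ± standard error here and below; adjusted p by limma 2.1e-10 and 2.3e-11). These falls passed the test in each of the 23 alternative analyses run, with log2 changes of -2.28 to -2.14 with PE and -2.67 to -2.46 with PBS. PE itself gave 0.25 ± 0.11 in knockdown cells and -0.15 ± 0.11 in control cells, neither called (limma, adjusted p = 0.10 and 0.35), although the PE control libraries all lay below the PBS control libraries. With values rescaled to the same total per library, which moved the median of all genes by PE to -0.13 in knockdown cells and -0.15 in control cells, the value of Ppp3ca in control cells was -0.31 (limma, adjusted p = 0.035).

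Ppp3cb, the beta form of the catalytic subunit (ENSMUSG00000021816.12, chromosome 14, 20499364 to 20546573, minus strand), had 1192, 1229 and 1344 in PE knockdown cells, against 1497, 1672 and 1639 in PE control cells. The groups did not overlap, with a log2 change of -0.35 ± 0.12 (limma, adjusted p = 0.054). It passed by limma without replicate 2 (adjusted p = 0.011) or 3 (0.049) of the PBS knockdown cells or replicate 2 of the PBS control cells (0.040), and with DESeq2 on the reads (adjusted p = 0.034). Those PBS libraries are not in this comparison, and without them only the pooled spread changed, not the estimate. It did not pass when a PE library was left out, by edgeR on the reads (adjusted p = 0.058), or by limma after rescaling to equal library totals (0.20). With PBS the values were 1504, 1210 and 1635 in knockdown cells and 1876, 1547 and 1903 in control cells, which overlapped (-0.30 ± 0.12, limma adjusted p = 0.17). PE gave -0.20 ± 0.12 in knockdown cells and -0.14 ± 0.12 in control cells (limma, adjusted p = 0.22 and 0.41). Without replicate 2 of the PBS knockdown cells the first of these was -0.32 (limma, adjusted p = 0.024).

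Ppp3cc, the gamma form, better known from testis and brain (ENSMUSG00000022092.12, chromosome 14, 70217865 to 70289471, minus strand), lay between 354 and 499 in all libraries. Its groups overlapped in all 4 comparisons, and its log2 changes ran from -0.15 to -0.02, none called (limma, adjusted p = 0.57 to 0.93). Ppp3r1, the regulatory subunit that each catalytic form needs (ENSMUSG00000033953.11, chromosome 11, 17159263 to 17200375, plus strand), averaged 1855 ± 164 in PE knockdown cells and 1830 ± 105 in PE control cells. With PBS it averaged 1651 ± 342 in knockdown cells and 1591 ± 235 in control cells. The knockdown change was 0.02 with PE, with a 95% interval of -0.27 to 0.31, and 0.04 with PBS, with an interval of -0.25 to 0.33. PE gave 0.19 ± 0.14 in knockdown cells and 0.21 ± 0.14 in control cells, neither called (limma, adjusted p = 0.35 and 0.30). Replicate 2 of each PBS group was the lowest of its group, at 1257 in knockdown cells and 1321 in control cells. Of the 100-base windows of Ppp3r1 transcripts, 11.6% also lie in its neighbour Wdr92, which overlaps it on the same strand with a mean of 259, so some reads could belong to either gene. The catalytic genes shared no such window with each other or with any other gene.

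Per kb of exon, Ppp3ca and Ppp3cb stood at nearly the same level in control cells, and Ppp3ca was the lowest of the 3 catalytic genes in knockdown cells. Ppp3ca made up 12.4% ± 0.80 of catalytic subunit transcripts in PE knockdown cells and 35.9% ± 0.73 in PE control cells. In PBS its share was 9.94% ± 0.35 in knockdown cells and 36.7% ± 3.03 in control cells. The sum of the 3 genes was 320 ± 10.2 normalised reads per kb in PE knockdown cells, against 518 ± 14.1 in PE control cells, and 338 ± 46.0 in PBS knockdown cells, against 564 ± 9.60 in PBS control cells. The knockdown sums did not overlap the control sums, and neither Ppp3cb nor Ppp3cc was called higher with the knockdown. These are sums over genes and carry no test, and the exon length counts each annotated exon, used or not.

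**Figure D2:**
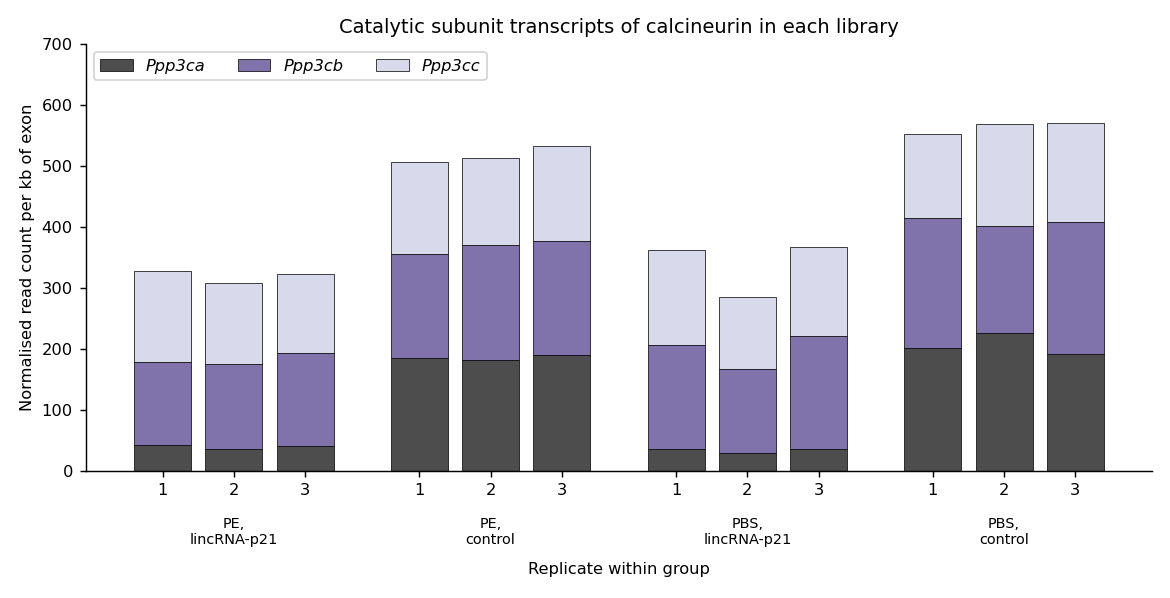
Normalised read count per kb of exon (y axis) of Ppp3ca, Ppp3cb and Ppp3cc, stacked for each of the 12 libraries by group. The Ppp3ca part is small in the 6 knockdown libraries, and the total there is 286 to 368, against 506 to 570 in control libraries.

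RCAN genes encode small proteins that bind the catalytic subunit. Rcan1 (ENSMUSG00000022951.17, chromosome 16, 92391953 to 92470867, minus strand) has an upstream RefSeq start and, far downstream, one at the internal promoter of the short form. Both lie inside the span given. The windows from 250 bases before to 50 bases after each start (RefSeq, GRCm38.p6, given 5′ to 3′ on the minus strand) are shown because this is the member that PE raised most. Capitals mark matches to GGAAA, the core of NFAT sites, on either strand.
Rcan1 upstream start, chr16:92466120-92466419: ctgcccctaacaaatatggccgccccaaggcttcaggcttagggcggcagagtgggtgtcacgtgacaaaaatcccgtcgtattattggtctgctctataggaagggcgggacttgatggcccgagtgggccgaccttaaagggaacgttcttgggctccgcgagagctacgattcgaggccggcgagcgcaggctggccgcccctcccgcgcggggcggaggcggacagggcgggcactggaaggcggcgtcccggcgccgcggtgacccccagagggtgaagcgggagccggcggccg
Rcan1 downstream start, chr16:92400029-92400328: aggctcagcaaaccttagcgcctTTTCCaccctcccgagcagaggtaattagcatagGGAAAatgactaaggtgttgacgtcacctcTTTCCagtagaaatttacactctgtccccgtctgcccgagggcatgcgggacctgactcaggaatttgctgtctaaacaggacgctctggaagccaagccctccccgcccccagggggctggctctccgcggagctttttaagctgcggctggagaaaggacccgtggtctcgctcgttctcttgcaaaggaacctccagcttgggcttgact
The upstream window holds no match to GGAAA and the downstream window holds 3, a number that 9.42% of all 32851 promoter windows reach or exceed. The downstream window also holds 1 match to TGACTCA, a site of AP-1 factors that 5.20% of windows have, and 1 to TGACGTCA, the cyclic AMP response element, found in 1.79%. None of these matches overlaps another. The motifs were chosen after the windows were seen, and a match is a description and not a binding site. Counts per gene do not tell which start was used.

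**Figure D3:**
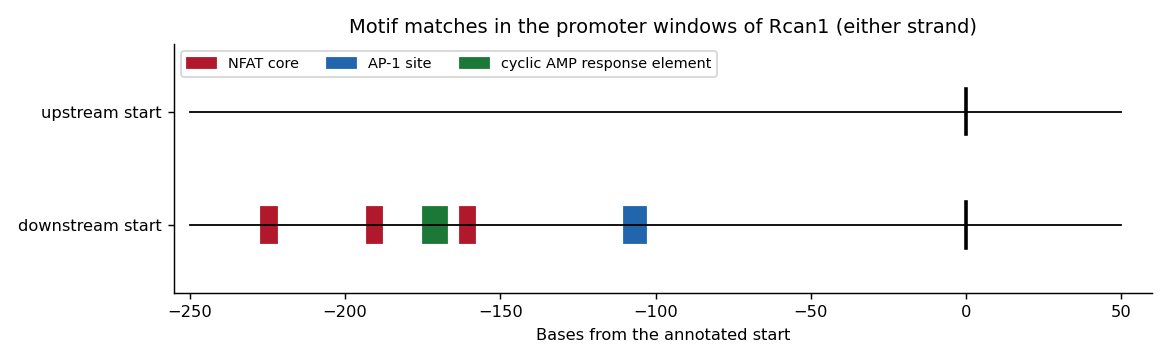
Matches to the NFAT core, the AP-1 site and the cyclic AMP response element in the promoter windows of the upstream and the downstream start of Rcan1, by bases from the annotated start (x axis). The downstream window holds 3 NFAT cores at 227, 193 and 163 bases before the start, and the upstream window holds no match.

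Rcan1 had 3194, 2808 and 2749 in PE knockdown cells, against 1666, 1543 and 1697 in PBS knockdown cells. In control cells it had 2847, 3146 and 3325 with PE, against 1576, 1718 and 1564 with PBS. Each PE library lay above each PBS library. The mean was 1.78-fold that of PBS in knockdown cells and 1.92-fold in control cells. The log2 changes were 0.83 ± 0.10 and 0.94 ± 0.10 (adjusted p by limma 2.1e-06 and 4.4e-07). Both rises passed in all 23 alternatives. The difference between the 2 rises was -0.11 ± 0.14 with a 95% interval of -0.39 to 0.18 (limma, interaction, adjusted p = 0.84). The knockdown itself gave -0.09 (interval -0.29 to 0.11) with PE and 0.01 (interval -0.19 to 0.21) with PBS. In the cells with 78.6% less Ppp3ca RNA than PE control cells, Rcan1 RNA stood at 2917 ± 242, against 3106 ± 241 in PE control cells, and these values overlapped. These are RNA counts per gene that do not separate the short form, and calcineurin protein and activity were not tested.

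Rcan2, a paralog of Rcan1 that spans 238 kb (ENSMUSG00000039601.17, chromosome 17, 43801351 to 44039516, plus strand), was the highest member per kb of exon in every group. It had 6161, 5500 and 5471 in PE knockdown cells, against 8202, 8892 and 9039 in PE control cells. With PBS it had 4863, 4855 and 5206 in knockdown cells, against 6813, 7515 and 6955 in control cells. The groups did not overlap under either treatment, and the means were 34.4% lower with PE and 29.9% lower with PBS. On the log2 scale the falls were -0.61 ± 0.09 and -0.51 ± 0.09 (adjusted p by limma 1.5e-04 and 0.0024), called in all alternatives. In knockdown cells PE gave 0.20 ± 0.09, with no overlap but no call (limma, adjusted p = 0.13). PE raised Rcan2 by 0.30 ± 0.09 in control cells (limma, adjusted p = 0.024). That call was lost without PE control replicate 2 (0.28, adjusted p = 0.089) or 3 (0.27, adjusted p = 0.087), without PBS control replicate 1 (0.27, adjusted p = 0.099) or 3 (0.28, adjusted p = 0.086), and after rescaling to equal library totals (0.14, adjusted p = 0.29). It was also lost with no filter except for genes at 0 in every library (0.30, limma adjusted p = 0.051).

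Among the NFAT genes Nfatc4 had the largest change with PE, in knockdown and in control cells. Nfatc4, whose protein was first tied to heart hypertrophy as NFAT3, is a short gene of 10.8 kb (ENSMUSG00000023411.13, chromosome 14, 55823144 to 55833943, plus strand). It had 137, 139 and 134 in PE knockdown cells, against 339, 527 and 378 in PBS knockdown cells. In control cells it had 179, 170 and 165 with PE, against 352, 426 and 342 with PBS. All 6 PE libraries lay below all 6 PBS libraries. The mean of Nfatc4 was 3.04-fold lower with PE in knockdown cells and 2.18-fold lower in control cells. The log2 changes were -1.57 ± 0.15 and -1.11 ± 0.15 (adjusted p by limma 1.7e-07 and 1.2e-05), called in all alternatives. The difference between these falls was -0.46 ± 0.21 (limma, interaction, adjusted p = 0.49). The PE knockdown libraries lay just below the PE control libraries without overlap (-0.32 ± 0.15, limma adjusted p = 0.19), and with PBS the groups overlapped (0.13 ± 0.15, limma adjusted p = 0.71).
The window at its RefSeq start (GRCm38.p6, plus strand, 5′ to 3′) is shown because Nfatc4 fell while Rcan1 rose. Like the downstream window of Rcan1 it holds 3 matches to GGAAA (capitals, either strand). The window of Ppp3cb holds 4 and 1 of the Nfatc2 windows holds 3 as well.
Nfatc4, chr14:55824545-55824844: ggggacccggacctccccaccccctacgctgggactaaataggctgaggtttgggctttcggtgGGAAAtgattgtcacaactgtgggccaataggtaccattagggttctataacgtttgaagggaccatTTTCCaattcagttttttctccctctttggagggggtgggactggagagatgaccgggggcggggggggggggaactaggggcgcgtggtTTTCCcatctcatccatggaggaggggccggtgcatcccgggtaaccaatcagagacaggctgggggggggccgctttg

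Nfatc1, a factor of the endocardium and heart valves (ENSMUSG00000033016.17, chromosome 18, 80606205 to 80713071, minus strand), had 884, 639 and 617 in PE knockdown cells, against 808, 1323 and 870 in PBS knockdown cells. In control cells it had 842, 751 and 715 with PE, against 862, 1073 and 988 with PBS, without overlap. PE lowered it in knockdown cells by limma (-0.47 ± 0.16, adjusted p = 0.036) although those groups overlapped, and gave -0.34 ± 0.16 in control cells (adjusted p = 0.15). The call in knockdown cells was lost without replicate 2 (-0.40, limma adjusted p = 0.13) or 3 (-0.38, adjusted p = 0.15) of the PE knockdown cells or replicate 2 of the PBS knockdown cells (-0.25, adjusted p = 0.19). It was also lost with only the libraries compared (-0.47, limma adjusted p = 0.097) and with no filter except for genes at 0 in every library (-0.47, adjusted p = 0.055). In control cells a call was gained without replicate 2 of the PBS knockdown cells (-0.34, limma adjusted p = 0.041) and after rescaling to equal library totals (-0.50, adjusted p = 0.019). The knockdown gave -0.13 with PE and 0.01 with PBS, neither called (limma, adjusted p = 0.72 and 0.99).

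Nfatc2, best known from T cells and present in heart muscle (ENSMUSG00000027544.17, chromosome 2, 168476410 to 168601657, minus strand), had 925, 840 and 700 in PE knockdown cells, against 413, 867 and 524 in PBS knockdown cells. These overlapped, with a change of 0.51 ± 0.19 beside the threshold (limma, adjusted p = 0.050). It was called without replicate 2 of the PBS knockdown cells (0.81, limma adjusted p = 1.6e-04), replicate 3 of the PE knockdown cells (0.62, 0.037) or replicate 2 of the PBS control cells (0.51, 0.046). In control cells it had 1110, 1041 and 1028 with PE, against 619, 831 and 645 with PBS. These did not overlap, and PE raised it by 0.61 ± 0.19 (limma, adjusted p = 0.021). The call was lost without replicate 1 (0.58, limma adjusted p = 0.074) or 2 (0.63, 0.054) of the PE control cells, without PBS control replicate 1 (0.53, 0.091) or 3 (0.56, 0.077), and after rescaling to equal library totals (0.45, 0.066). The knockdown gave -0.38 ± 0.19 with PE and -0.27 ± 0.19 with PBS (limma, adjusted p = 0.24 and 0.49), and without replicate 2 of the PBS knockdown cells these were -0.38 and -0.57, both called (limma, adjusted p = 0.042 and 0.018).

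Nfatc3, the most abundant of the NFATc members per kb of exon (ENSMUSG00000031902.11, chromosome 8, 106058840 to 106130537, plus strand), had 2567, 2172 and 2230 in PE knockdown cells, against 1690, 1848 and 1992 in PE control cells. The groups did not overlap, and the knockdown raised it by 0.33 ± 0.10 (limma, adjusted p = 0.031). That call was lost without replicate 1 (0.26, limma adjusted p = 0.13) or 3 (0.36, adjusted p = 0.061) of the PE knockdown cells and without replicate 1 (0.27, adjusted p = 0.15) or 2 (0.34, adjusted p = 0.093) of the PE control cells. With PBS it had 1872, 1985 and 2161 in knockdown cells and 1871, 1965 and 1936 in control cells, which overlapped (0.06 ± 0.10, limma adjusted p = 0.82). PE gave 0.21 ± 0.10 in knockdown cells, where the groups did not overlap, and -0.06 ± 0.10 in control cells, neither called (limma, adjusted p = 0.12 and 0.69). Esrp2, on the other strand, overlaps Nfatc3 with a mean of 93.0, and the sources used here do not give whether reads were counted by strand.

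**Figure D4:**
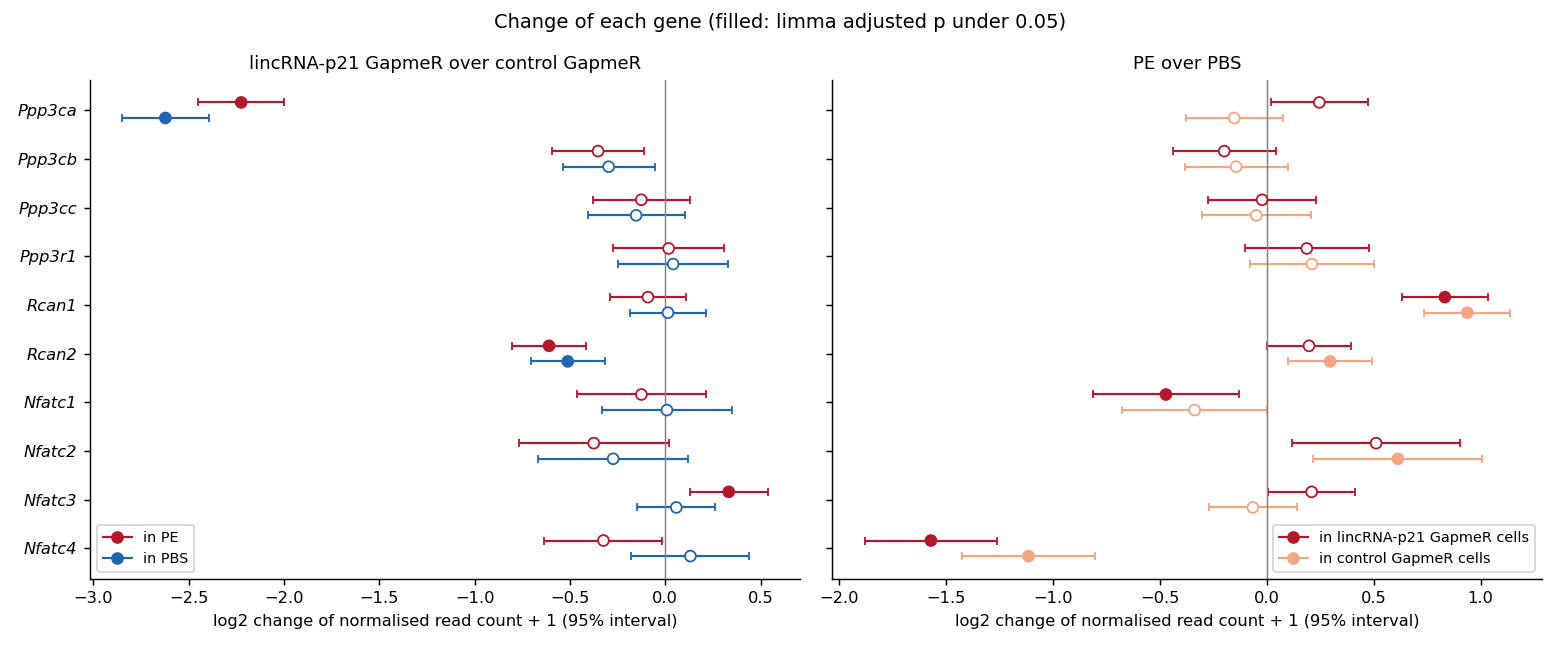
log2 change with its 95% interval (x axis) of each gene, for the lincRNA-p21 GapmeR over the control GapmeR (left) and PE over PBS (right), with filled points for limma adjusted p under 0.05. Ppp3ca stands at -2.22 and -2.62 on the left, and Rcan1 and Nfatc4 lie on opposite sides of 0 on the right.

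Library values of the groups compared did not overlap in 6 of the 10 genes for the knockdown with PE (30.5% of all genes tested), 2 with PBS (22.0%), 4 for PE in knockdown cells (38.7%) and 6 for PE in control cells (41.7%). No member was called for the interaction of PE and knockdown by limma, edgeR or DESeq2, beside 0.055% of all genes by limma. By limma 2 members had an unadjusted p under 0.05, Ppp3ca (0.40 ± 0.15) and Nfatc4 (-0.46 ± 0.21).

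Per kb of exon, the order in PBS control cells was Rcan2 (1623 ± 84.9), Rcan1 (525 ± 27.7), Ppp3r1 (493 ± 72.8), Ppp3ca (207 ± 17.7), Ppp3cb (202 ± 22.5), Nfatc3 (164 ± 4.12), Ppp3cc (156 ± 15.5), Nfatc1 (130 ± 14.2), Nfatc2 (66.0 ± 11.0) and Nfatc4 (64.3 ± 7.96). Library values of Rcan1 and Ppp3r1, of Ppp3ca and Ppp3cb, of Nfatc3 and Ppp3cc, of Ppp3cc and Nfatc1, and of Nfatc2 and Nfatc4 overlapped, so those neighbours had no set order. In knockdown cells Ppp3ca moved to rank 9 with PE (39.8 ± 3.79) and rank 10 with PBS (33.6 ± 3.58), against rank 4 in both control groups. With PE, Nfatc4 was last in knockdown cells (23.5 ± 0.40) and in control cells (29.5 ± 1.21).

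The genes called lower with the knockdown by limma over all 12 libraries, Ppp3ca and Rcan2, were the longest of the 10. Ppp3ca (268 kb), Rcan2 (238 kb), Nfatc2 (125 kb) and Nfatc1 (107 kb) span at least 100 kb, and 2 of these 4 were called lower with PE and with PBS. None of the 6 shorter members was called lower in that fit, but Ppp3cb (47.2 kb) was called lower with the knockdown in PE in 8 of the 23 alternatives and Nfatc4 (10.8 kb) in 1, and without the 3 distant libraries Ppp3cb was also called lower in PBS. Among all genes whose mean value reached 50, 42.9% of those spanning at least 100 kb were called lower with the knockdown in PE, against 6.78% of shorter genes, and 21.4% against 2.68% in PBS. Of 4 other pathway genes spanning at least 100 kb, 3 were called lower with the knockdown in PE and 1 in PBS. Of 17 shorter ones 1 was called lower, Nfat5 (86.0 kb), in PE and in PBS. The part of gene length in the falls of Ppp3ca and Rcan2 was not tested.

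**Figure D5:**
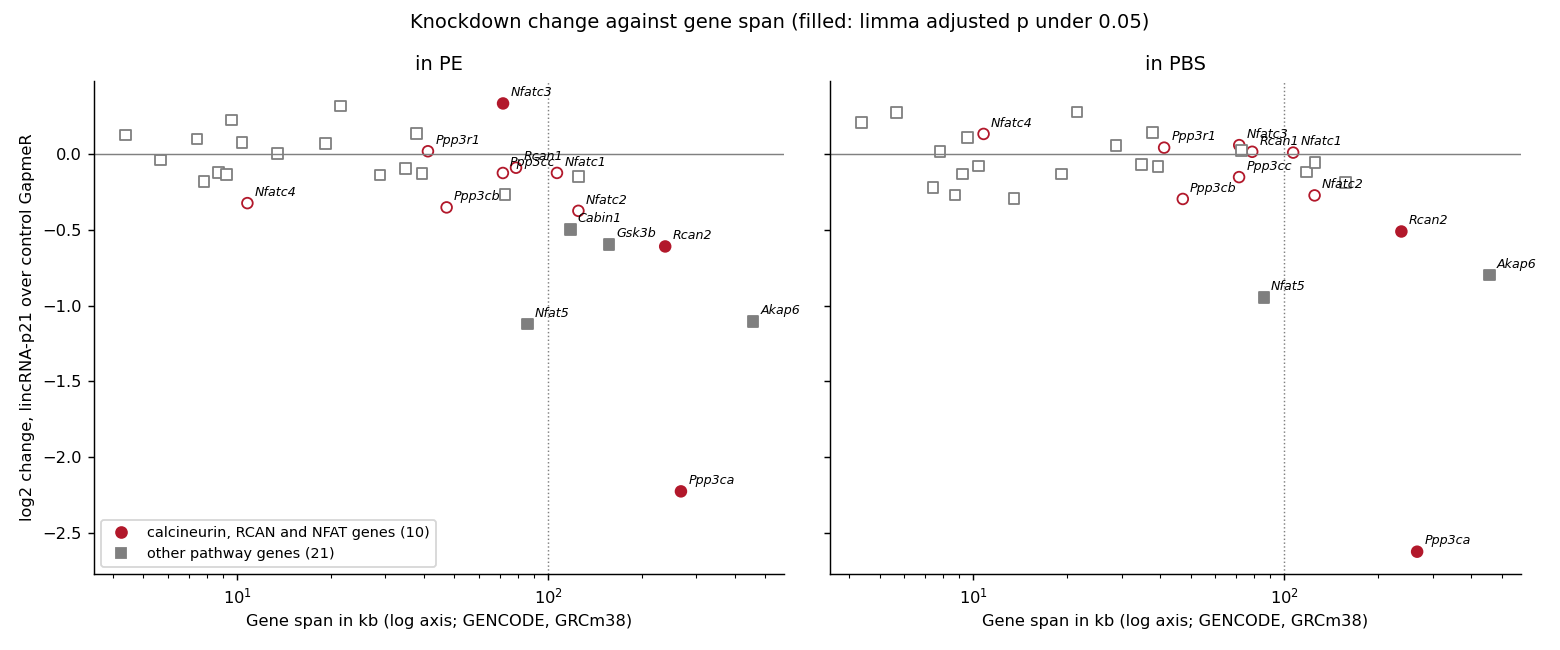
log2 change with the lincRNA-p21 GapmeR (y axis) in PE (left) and PBS (right) against gene span in kb (log x axis), for the 10 genes and 21 other genes of the pathway. The dotted line marks 100 kb, and Ppp3ca, Rcan2 and Akap6 lie to its right with called falls in both panels. Nfat5 (86.0 kb) lies to its left with called falls in both panels, and Nfatc1, Nfatc2 and Dyrk1a lie to its right uncalled.

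The rest of the pathway was described by 23 genes, of which 21 were tested. With the knockdown in PE 4 were called lower and none higher, beside 7.14% and 4.57% of all genes, with a median log2 change of -0.12 beside 0.01 for all genes. Nfat5, the calcineurin-independent relative of the NFATc genes, fell by 1.12 and Akap6, the anchor mAKAP that holds calcineurin at the nuclear envelope of cardiomyocytes, by 1.10 (limma, adjusted p = 9.6e-06 and 1.6e-07). Gsk3b, a kinase that drives NFAT out of the nucleus, fell by 0.60 and Cabin1, a calcineurin inhibitor, by 0.50 (limma, adjusted p = 0.0016 and 0.033). The Cabin1 call was lost without replicate 2 (-0.47, limma adjusted p = 0.12) or 3 (-0.43, adjusted p = 0.13) of the PE knockdown cells, without replicate 1 (-0.44, adjusted p = 0.14) or 2 (-0.48, adjusted p = 0.11) of the PE control cells, and after rescaling to equal library totals (-0.42, adjusted p = 0.064). It was also lost with no filter except for genes at 0 in every library (-0.50, limma adjusted p = 0.053). In PBS 2 were called lower, beside 3.21% of all genes, Nfat5 at -0.94 and Akap6 at -0.80 (limma, adjusted p = 2.0e-04 and 2.3e-05), and the median was -0.08 beside 0.00 for all genes. The calls of Nfat5 and Akap6 stood in all alternatives.

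In knockdown cells PE raised 4 of the 21 pathway genes and lowered 4, beside 13.4% and 14.0% of all genes, with a median of 0.05 beside 0.00 for all genes. There Myoz2, which encodes the calcineurin-binding Z-disc protein calsarcin-1, rose by 0.91, and Fkbp1a, which encodes the FK506-binding protein FKBP12, by 0.69 (limma, adjusted p = 5.6e-06 and 3.9e-04). The kinase gene Dyrk1b fell by 0.85, the calcium-binding protein gene Cib1 by 0.56 and Cabin1 by 0.49 (limma, adjusted p = 0.0031, 0.0025 and 0.019). The Cabin1 call was lost without PE knockdown replicate 2 (-0.46, limma adjusted p = 0.066) or 3 (-0.42, adjusted p = 0.079) or PBS knockdown replicate 2 (-0.25, adjusted p = 0.086). It was also lost with only the libraries compared (-0.49, limma adjusted p = 0.067). In control cells PE raised 6 of the 21 and lowered 3, beside 12.6% and 12.8% of all genes, with a median of 0.11 beside 0.00 for all genes. Myoz2 rose by 1.11, while its skeletal muscle relative Myoz1 fell by 0.81 at levels of only 23.7 with PE and 42.4 with PBS (limma, adjusted p = 4.7e-07 and 0.014). The NFAT kinase gene Dyrk1a rose by 0.49 and Fkbp1a by 0.48, while Dyrk1b fell by 0.65 (limma, adjusted p = 7.2e-04, 0.0080 and 0.021). Calls were lost for Myoz1 without PBS control replicate 1 (-0.71, limma adjusted p = 0.071), and for Dyrk1b without PE control replicate 2 (-0.59, adjusted p = 0.083) or 3 (-0.61, adjusted p = 0.074) or PBS control replicate 2 (-0.51, adjusted p = 0.11).

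Over the 12 libraries, the genes most like Ppp3ca were Prcp, Rgs17, Ralgapa2, Vps53 and Slc8a1 (Pearson's r of 0.994, 0.991, 0.986, 0.986 and 0.982 on log2 values, among 12112 genes). With the knockdown in PE and in PBS, Prcp (60.1 kb) gave -1.21 and -1.36 and Rgs17 (96.7 kb) -2.28 and -2.24. Ralgapa2 (272 kb) gave -2.34 and -2.67, and Vps53 (133 kb) -1.37 and -1.34. Slc8a1 (365 kb), the cardiac sodium-calcium exchanger, gave -1.56 and -1.41. The genes most like Rcan1 were Mmp8, Clec7a, Mapk6, the endothelial gene Emcn and the endothelin gene Edn1 (r of 0.992, 0.991, 0.990, 0.990 and 0.990). These are descriptions of libraries that share 4 groups, with no test.

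Markers of other cells moved with PE beside the changes of Rcan1, Nfatc1, Nfatc2 and Nfatc4. Of 8 endothelial and endocardial markers 6 rose and 1 fell in control cells by limma, with summed normalised read counts of 4811 to 5812 in PE knockdown cells, 5638 to 6187 in PE control cells, 2156 to 2195 in PBS knockdown cells and 2241 to 2431 in PBS control cells. Of 8 fibroblast markers 6 fell in control cells, with sums of 34349 to 38279, 41919 to 46015, 65283 to 77842 and 71338 to 77139 in the same order of groups. Of 7 leukocyte markers tested 3 rose, with sums of 1645 to 2342, 1789 to 2067, 1423 to 1652 and 1468 to 2136 in that order, and the T cell marker Cd3e was at 0 in every PBS library. The 6 markers of smooth muscle and pericytes split into 3 that rose and 3 that fell, with sums of 34838 to 38052, 48009 to 50464, 18518 to 20672 and 22256 to 26368 in that order. Acta2 was the largest part of these sums, with means of 34361, 46552, 16105 and 20529, while Myh11, Rgs5 and Pdgfrb were the 3 that fell. In knockdown cells PE raised 7 endothelial and endocardial markers and lowered 1, and it lowered 7 fibroblast markers. It raised 4 leukocyte markers there, and raised 2 and lowered 3 of smooth muscle and pericytes. Of all genes, PE raised 13.4% and lowered 14.0% in knockdown cells, and 12.6% and 12.8% in control cells. With the knockdown in PBS none of these markers was called. With the knockdown in PE 0 of 7 leukocyte markers were called. In the endothelial and endocardial, the fibroblast, and the smooth muscle and pericyte lists 2 each were called, all lower, beside 7.14% of all genes. Of the 8 cardiomyocyte markers 1 was called there, Ryr2, which was lower. The part of cell composition in the changes of the members was not tested. Replicate 2 of the PBS knockdown cells was the highest of its group for Nfatc1, Nfatc2 and Nfatc4 and the lowest for the 4 subunit genes, Rcan1 and Rcan2.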

How the data were processed

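Polyadenylated RNA of 12 libraries, 3 in each of 4 groups, was sequenced as paired-end reads of 100 bases, per the labels' protocols. Per the submitters' processing notes, the tools were STAR, SAMtools and featureCounts and the genome build was GRCm38.p6. Their versions, the annotation release and any use of strand are not given in the sources used here. What the authors deposited is 1 table of signal, read counts per gene divided by 1 size factor per library (0.921 to 1.11). In every library 100% of values were whole multiples of its smallest value (tolerance 0.001), which gave back the reads.

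Gene names came from GENCODE release M21, joined on identifiers stripped of their version (52135 of 55416, only 35 with their version), the source of positions, spans and exon lengths. The 21799 genes whose mean value reached 1 went into limma 3.58.1 as log2(value + 1), with 4 group means and a trended prior, two-sided, with Benjamini-Hochberg adjustment over all genes at 0.05. The log2 changes are on that scale and understate low genes. Fold and percent values are ratios of group means of the normalised read counts. The fit was tested on simulated data. Alternatives were pseudocounts of 0.1 and 4, other filters, another scaling, edgeR 4.0.16 and DESeq2 1.42.0 on the recovered reads, only the libraries compared, a replicate block, each library left out, and 3 distant libraries left out. Where a group kept 2 libraries, limma pooled the spread over groups. Leaving out a library of a group not compared kept the estimate and changed only the spread and the p-values. The members, lists and alternatives were chosen with earlier results of these data known. Named besides the members were up to 6 called pathway genes per comparison by size (1 of them is not reported here), and the 5 genes most like Ppp3ca and Rcan1 over the 12 libraries, among genes whose mean value reached 50. Promoter windows came from RefSeq and covered 7 of the 10 members. A chi-square test of the recovered reads (2.42 to 53.5 per degree of freedom between replicates) found none deposited more than once among the libraries of a group. The count test of edgeR called 2482 genes for the knockdown in PE, against 2553 by limma.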

Additional observations from a re-analysis of the deposited data

How the results depend on the processing

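No value of a called gene changed its sign under any alternative. The 10 genes and 5 comparisons gave 1140 values under alternatives, of which 1088 stayed on the same side of the threshold, 21 lost a call and 31 gained one. In 35 of the 1088 an uncalled value had the other sign. The 18 pathway results chosen by the naming rule gave 414 values, of which 14 lost a call. Ppp3ca and Rcan2 with the knockdown, and Rcan1 and Nfatc4 with PE, were called in all 23 alternatives.

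Members called with the knockdown in PE numbered 3, or 5 with only the libraries compared and 7 without the 3 distant libraries. Without those libraries the count was 4 with the knockdown in PBS (2 in the test reported) and 5 with PE in knockdown cells (3). Leaving out each library gave 2 to 5 and 2 to 3 members for the knockdown in PE and PBS, 2 to 4 and 2 to 5 for PE in knockdown and control cells, and 0 for the interaction. All genes called by the knockdown in PE were 2553, 1671 to 3502 in leave-one-out fits and 4672 without the 3 libraries. In PBS they were 997, 510 to 1181 in leave-one-out fits, 392 with only the libraries compared and 1865 without the 3 libraries. For PE they were 4906 to 6129 in knockdown and 4263 to 6552 in control cells when each library was left out. The interaction called 12 genes, 3 to 22 in leave-one-out fits, 124 with DESeq2 and 143 without the 3 libraries. Rescaling to the same total took the calls for PE in knockdown cells to 1971 higher and 4441 lower, against 2918 and 3049, for PE in control cells to 1681 and 4289, against 2742 and 2801, for the knockdown in PE to 1501 and 1099, against 997 and 1556, and in PBS to 481 and 501, against 297 and 700. Without length scaling the share of Ppp3ca was 19.2% and 47.5% in PE knockdown and control cells and 15.2% and 48.0% in PBS knockdown and control cells. The cause of these moves was not tested, except that the last follows from the different exon lengths of the 3 catalytic genes. These are 9.98 kb for Ppp3ca, 8.81 kb for Ppp3cb and 2.985 kb for Ppp3cc.

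Residuals of libraries with the same replicate number correlated between -0.435 and 0.409, so the numbers were not taken as pairs. With the replicate number as a block, Nfatc3 with the knockdown in PE lost its call (0.33, limma adjusted p = 0.050), Ppp3cb gained one (-0.35, 0.049), and Nfatc2 with PE in knockdown cells gained one (0.51, 0.034).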
